A study of Danio rerio with 8 samples.

Results

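Genes of DNA replication and S phase were followed in the zebrafish retina, in intact fish and 3 days after optic nerve crush. The set was a list of 51 symbols, chosen by name with earlier results of these data known, so that shares set beside those of all genes are descriptions. It held the helicase that opens the double strand, the factors that load and start it, the clamp, polymerases and single-strand binding protein of the fork, the enzymes that supply deoxynucleotides, chromatin assembly factors and the cyclins of S phase. A probe belonged to the set when its RefSeq accession mapped to one of these symbols, and 45 of the 51 genes were found in this way, out of 13143 genes with a symbol on the array. They were read by 104 of the 43601 probes tested. No match was made for 6 symbols (cdt1, rfc2, pola1, fen1, chaf1b and slbp), which were not analysed here.

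RNA came from right retinae of wild type adult fish, 9 to 12 months old, whose sex was not distinguished. Control pools were taken from unoperated fish, and crush pools from fish whose right optic nerve had been crushed with forceps behind the eye, an injury to the axons of the retinal ganglion cells. Each group held 4 pools and each pool the retinae of 4 fish, so that no value belongs to a single animal and p-values measure the spread between pools. Each pool was hybridised to 1 one-colour array.

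Replication starts at origins that the origin recognition complex marks. CDC6 and CDT1 load the ring of MCM2 to MCM7 there, and the ring becomes an active helicase once CDC45 and the GINS complex join it and the kinases CDC7 and CDK2 have acted. Transcripts of many of these genes rise together as a cell passes from G1 into S phase, and they are widely used as a sign of cycling cells. The adult fish retina keeps dividing cells at its ciliary margin and in the rod lineage, and its Müller glia can re-enter the cycle after damage. Optic nerve crush spares the photoreceptors and injures the ganglion cells at their axons. Array signal of whole retinae cannot tell more cells of a type from more RNA per cell.

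The arrays were alike in most measures of quality, but control pool 2 had 382 outlier spots where the other arrays had 6 to 21. Such spots were set to missing. With them kept, the replication genes called were again 7 higher and 2 lower. Median spot intensities ran from 153 to 194.5 and background medians from 17 to 19. Well above background were 72.5% to 84% of the spots, with the highest share in control pool 2 and at most 77.8% on the others, and saturation was seen in none. Pearson's r between arrays across probes was 0.979 to 0.991 within a group and 0.973 to 0.986 between groups, 2 ranges that overlap. Controls shared 1 slide and crush pools shared another, so slide and group cannot be told apart. A probe passed when it changed at least 1.5-fold with an adjusted p of at most 0.05 in limma, adjusted by Benjamini-Hochberg over all 43601 probes. By that rule 826 probes were higher and 377 lower after crush, together 2.76% of those tested. Scaling the arrays by their medians in place of quantile normalisation turned this split into 1176 higher and 1204 lower.

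After crush, 7 of the 45 replication genes had a probe that was over-expressed and 2 had one that was under-expressed. The 7 were mcm6, mcm7, cdc45, orc6, rrm2l, tyms and tk1, and the 2 were gins2 and cdc45, so that cdc45 was called in both directions by different probes. The share called higher was 15.6% of the set, beside 3.02% of all genes with a symbol, and the share called lower was 4.44% beside 1.19%. Counted by probe, 11 of 104 (10.6%) passed upwards, where 1.89% of all probes did, and 2 (1.92%) passed downwards, where 0.865% did. Replication genes had 2.31 probes each and all genes 1.95, which gives them somewhat more chances to be called by any probe. On 1 probe per gene, the brightest on average across arrays, 6 were higher and 1 lower, against 2.47% and 0.883% of all genes. Leaving out control pool 4 raised the count of over-expressed genes from 7 to 13, and leaving out crush pool 3 lowered it to 3. Over the whole array the share of probes called higher moved in the same direction. It was 2.37% without control pool 4 and 0.816% without crush pool 3, beside 1.89% with all pools. The 13 genes included gins2, which like cdc45 was then called in both directions by different probes.

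Read on the brightest probe, 34 of the 45 genes (75.6%) had a higher mean after crush, beside 51.4% of all genes. The median log2 fold change of the set was 0.37, with quartiles of 0.02 and 0.75 and a range from -0.92 to 1.66, and that of all genes with a symbol was 0.01. In 16 genes (35.6%, beside 10.3% of all genes) every crush pool lay above every control pool, and in 3 (gins2, cdc7 and pole2, beside 6.53% of all genes) every crush pool lay below. A further 7 genes, mcm2, mcm3, mcm4, mcm5, cdc6, chaf1a and ccna2, exceeded the fold change of 1.5 without passing the adjusted p. Had p-values been left unadjusted at 0.05, 13 genes would have counted as higher. The share of all genes was not computed for either of these 2 counts, so neither says how the set differs from other genes.

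**Figure D1:**
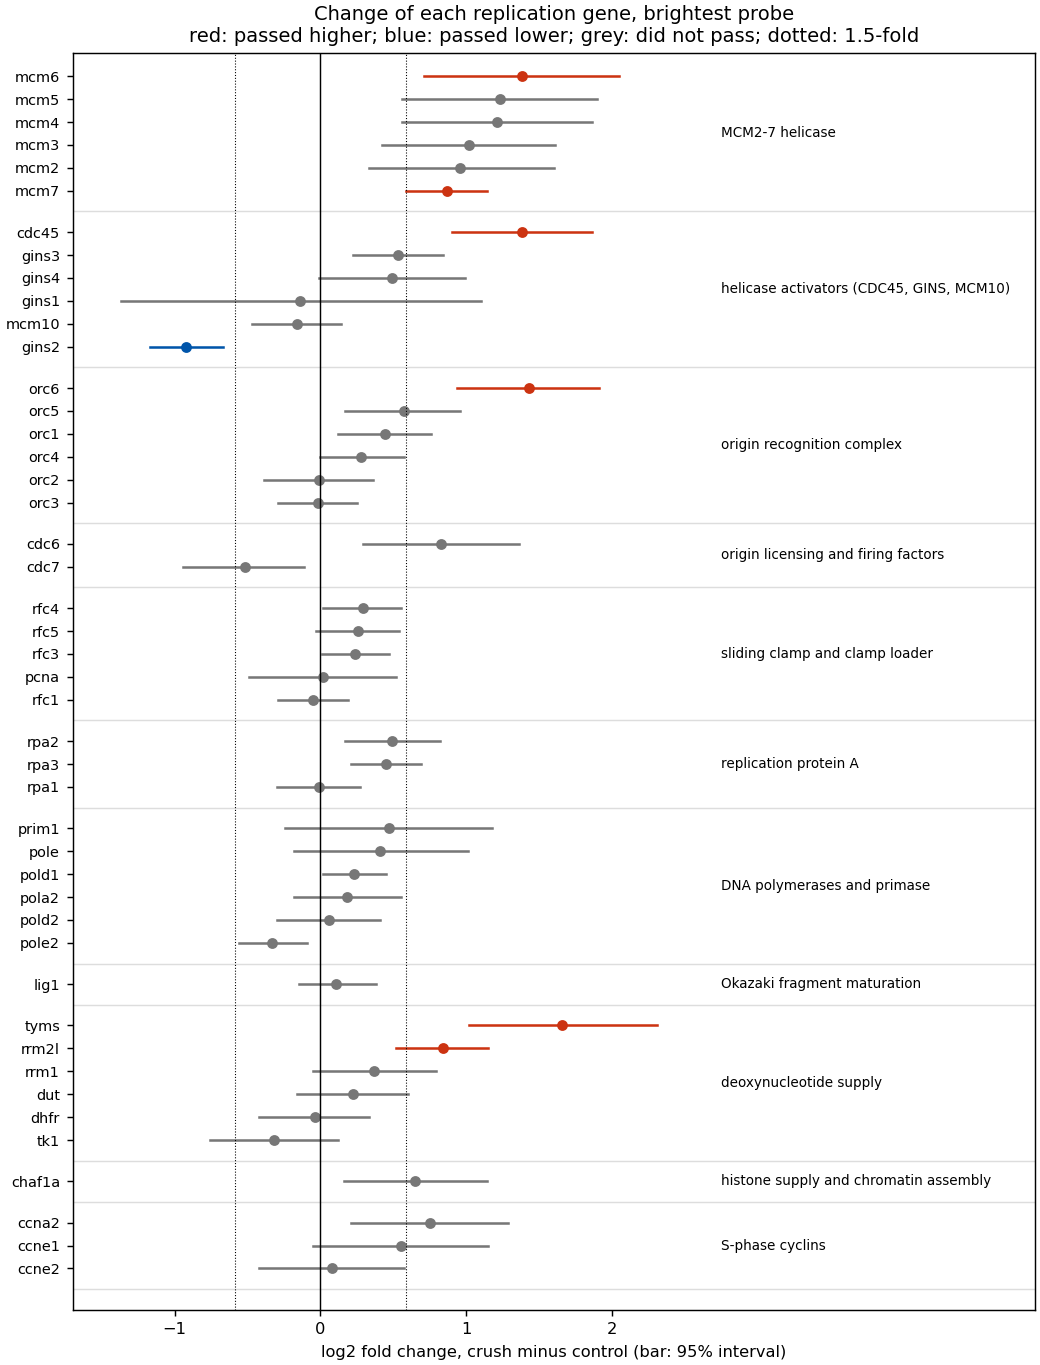
Log2 fold change of the 45 replication genes (crush minus control, brightest probe of each gene, x axis), grouped by role on the y axis, with bars for 95% intervals and dotted lines at a fold change of 1.5. All 6 MCM2 to MCM7 genes lie between 0.87 and 1.38, whereas the clamp and clamp loader genes lie between -0.05 and 0.29.

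On the brightest probe, all 6 genes of the MCM2 to MCM7 ring had every crush pool above every control pool. Their log2 fold changes lay between 0.87 and 1.38 with a median of 1.11, and 2 of them, mcm6 and mcm7, passed the test. The mcm6 signal, on the log2 scale after normalisation, was 8.0, 7.38, 7.27 and 8.51 in control pools 1 to 4 and 9.05, 9.28, 8.75 and 9.60 in crush pools 1 to 4. The lowest crush pool was thus only a little above control pool 4, while control pools 2 and 3 lay far below. Its log2 fold change was 1.38 (SE 0.29, adjusted p = 0.0441 in limma), and its dimmer probe gave 1.38 (SE 0.37) without passing (adjusted p = 0.0882). With 1 pool left out in turn, mcm6 passed in 1 of 8 sets, without control pool 4, and its adjusted p reached 0.122 without crush pool 2.

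mcm7 varied less between pools of a group than the other genes of the ring. Its signal was 11.47, 11.53, 11.69 and 11.88 in the control pools and 12.51, 12.64, 12.41 and 12.48 in the crush pools. All crush pools stood clear of all control pools, with a gap wider than the range of either group. The log2 fold change of 0.87 (SE 0.12, adjusted p = 0.00828 in limma) was the smallest of the 6 and the only one of the ring that passed in all 8 sets of 7 pools. Of the other mcm7 probes, 2 passed as well, at 0.86 (adjusted p = 0.00585 in limma) and 0.77 (adjusted p = 0.00525 in limma), and the dimmest gave 0.34 (adjusted p = 0.267).

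The other MCM genes moved by as much as mcm7 or more and did not pass. mcm5 read 8.15, 7.87, 6.97 and 8.42 in the control pools and 8.92, 9.18, 8.83 and 9.40 in the crush pools, a log2 difference of 1.23 (SE 0.30, adjusted p = 0.0628 in limma). mcm4 read 7.40, 6.54, 6.42 and 7.49, then 7.94, 8.37, 7.84 and 8.56, a difference of 1.21 (SE 0.29, adjusted p = 0.0598 in limma). In both genes the groups did not overlap and the spread lay mainly in the control pools. mcm3 read 7.45, 7.14, 6.93 and 8.19, then 8.29, 8.43, 8.29 and 8.75 (difference 1.02, SE 0.26, adjusted p = 0.0774 in limma). mcm2 read 8.84, 8.05, 8.0 and 9.09, then 9.26, 9.70, 9.10 and 9.77 (difference 0.96, 95% interval 0.33 to 1.6, adjusted p = 0.107 in limma). In mcm3 and mcm2 the highest control pool came close to the lowest crush pool, again without overlap. Some dimmer probes of these genes overlapped and others did not. On the second probes of mcm2 and mcm4, control pool 4 (6.61 and 6.05) lay just above crush pool 3 (6.60 and 6.04). Both mcm4 and mcm5 passed on the authors' own normalised values, at 1.11 (adjusted p = 0.0439 in limma) and 1.16 (adjusted p = 0.0461 in limma), and without control pool 4 all of mcm2, mcm3, mcm4 and mcm5 had a probe that passed.

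**Figure D2:**
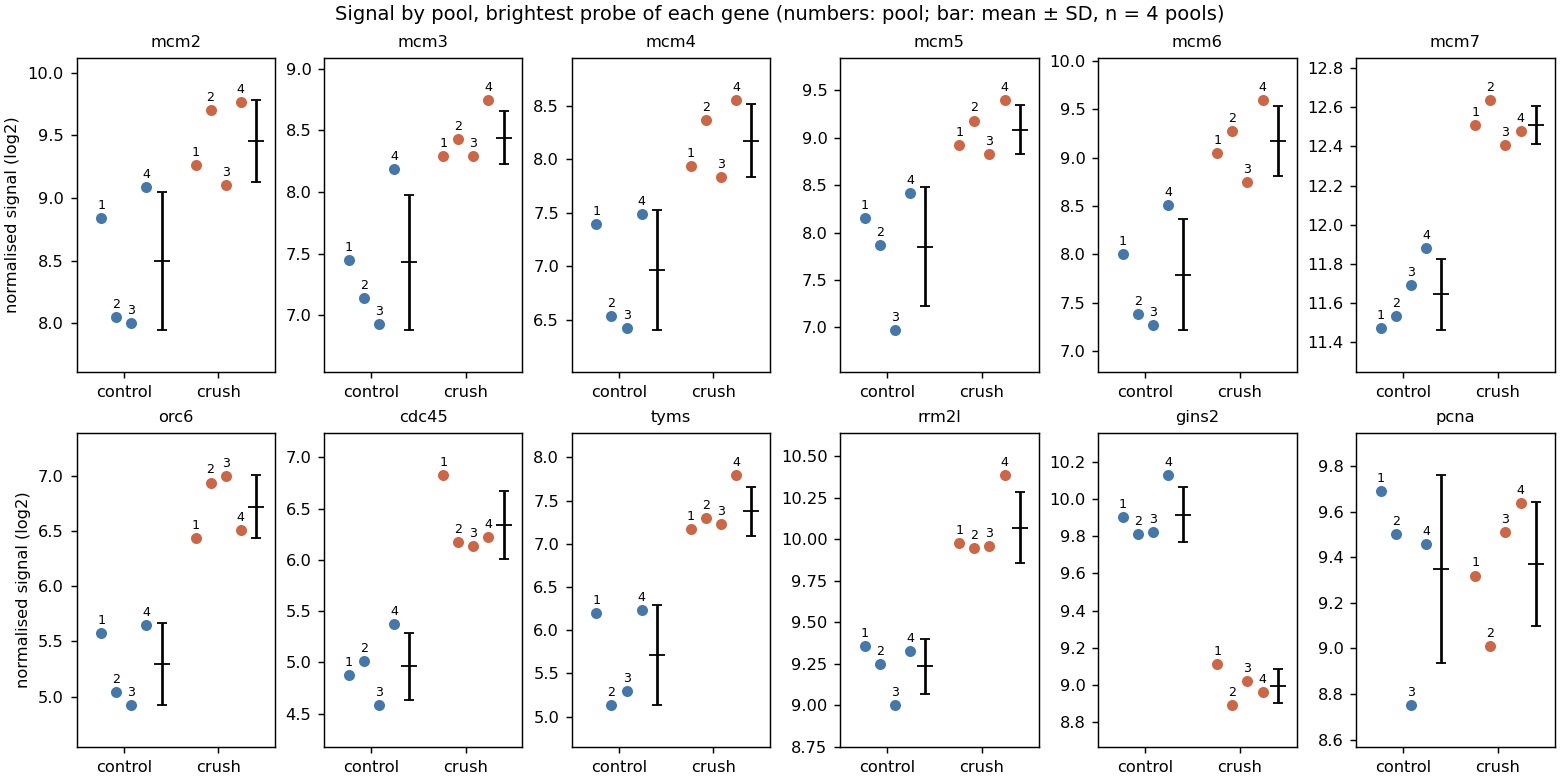
Normalised log2 signal (y axis, with its own range in each panel) of the brightest probe of 12 replication genes in control pools (blue) and crush pools (orange), with pool numbers beside the points and bars for mean ± SD, n = 4 pools. Control pool 4 is the highest control pool in all 6 MCM panels, and the groups overlap only in the pcna panel.

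The MCM genes also shared an order of pools. Set against the control mean, the median of the 6 was 0.25, -0.35, -0.51 and 0.58 in control pools 1 to 4 and 0.92, 1.27, 0.87 and 1.44 in crush pools 1 to 4. Control pool 4 was the highest control pool for 6 of the 6 genes and control pool 3 the lowest for 5. Crush pool 4 was the highest crush pool for 5 and crush pool 3 the lowest for 5. The genes were measured in the same RNA of the same pools, so that this order is 1 observation and not 6.

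Over the whole set the same pools stood out. The median deviation of the 45 genes from their control mean was 0.13, -0.11, -0.14 and 0.23 in control pools 1 to 4 and 0.22, 0.32, 0.28 and 0.44 in crush pools 1 to 4, where the medians of all genes ran from -0.02 to 0.04. Control pool 4 thus lay level with crush pool 1, and control pools 2 and 3 lay lowest. Control pool 4 was the highest control pool for 29 of the 45 genes (64.4%, beside 33.9% of all genes), and control pool 3 the lowest for 23 (51.1%, beside 21.3%). Crush pool 4 led the crush group for 25 genes (55.6%, beside 29.2%). The spread was wider in the control pools, with a median SD of 0.28 against 0.20 in the crush pools (0.21 and 0.17 for all genes), and the crush SD was the larger one in 14 of 45 genes.

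Leaving out a pool can only keep or raise the number of genes whose groups do not overlap, 16 with all pools. The number was 16 without crush pool 4 (35.6%, beside 12.1% of all genes) and 22 without control pool 4 (48.9%, beside 15.6% of all genes), counts chosen after the data were seen. The count of called genes can move either way, and it was 4 without crush pool 4, the ones kept being mcm7, cdc45, orc6 and rrm2l. It was likewise 4 without control pool 3 and without crush pool 2, and 5 without control pool 1, control pool 2 or crush pool 1. Calls also fell over the whole array, from 1.89% of probes higher with all pools. The share was 1.32% without crush pool 4, 0.872% without control pool 3 and 0.826% without crush pool 2. Without control pool 1, control pool 2 or crush pool 1 it was 1.29%, 1.14% and 1.32%.

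**Figure D3:**
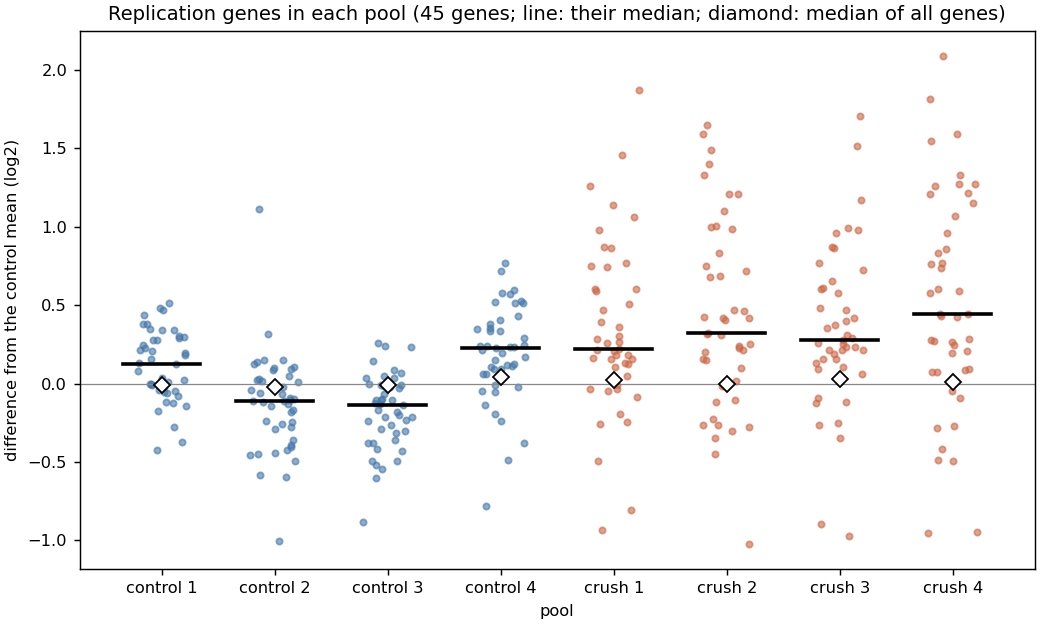
Difference of each of the 45 replication genes from its control mean (log2, y axis, brightest probe) in the 8 pools (x axis), with black lines for the median of the 45 genes and white diamonds for the median of all genes with a symbol. The black line is at 0.23 in control pool 4 and at 0.44 in crush pool 4, while the diamonds stay between -0.02 and 0.04.

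Among the factors that turn the MCM ring into a working helicase, cdc45, gins2 and mcm10 had probes of opposite sign. CDC45 binds the ring at the start of replication and travels with the fork. One cdc45 probe read 4.88, 5.01, 4.58 and 5.37 in the control pools and 6.83, 6.17, 6.13 and 6.22 in the crush pools, and rose by a log2 fold change of 1.38 (SE 0.21, adjusted p = 0.0130 in limma). The other read 5.76, 5.43, 5.52 and 5.70 and then 4.65, 4.27, 4.39 and 5.01, and fell by 1.03 on the log2 scale (SE 0.17, adjusted p = 0.0184 in limma). Neither probe had overlapping groups, and crush pool 4 was the highest crush pool on the probe that fell but not on the one that rose. The rising probe was well above background in 2 of 4 control and 4 of 4 crush pools, and the falling one in 4 of 4 control and 1 of 4 crush pools, so that each was near the floor in the group where it was low. The falling probe lost its call without control pool 1, control pool 3, crush pool 2 or crush pool 3, which leaves 1 gene of the set called lower. The mean of both probes differed by 0.18 (adjusted p = 0.594 in limma).

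The GINS complex has 4 subunits, all of them on the array. For gins2, the brighter probe read 9.90, 9.81, 9.82 and 10.13 in the control pools and 9.11, 8.89, 9.02 and 8.96 in the crush pools, and fell by 0.92 on the log2 scale (SE 0.11, adjusted p = 0.00438 in limma). The dimmer probe read 7.16, 6.86, 6.47 and 7.46, then 7.73, 7.82, 7.74 and 8.48, a difference of 0.96 in the other direction (SE 0.24, adjusted p = 0.0763 in limma). All crush pools were below all control pools on the first probe and above them on the second, and the mean of the 2 probes differed by 0.02 (adjusted p = 0.966 in limma). On the dimmer probe the control pools ran as in the MCM genes, with control pool 3 lowest, and crush pool 4 was likewise highest. The lowest crush pool was pool 1 at 7.73, with pool 3 next at 7.74.

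The single probe of gins3 read 7.0, 6.95, 6.72 and 7.01 in the control pools and 7.28, 7.34, 7.40 and 7.77 in the crush pools. Its groups did not overlap, at a difference of 0.53 (adjusted p = 0.0783 in limma), and control pool 3 and crush pool 4 were again its extremes. gins4 differed by 0.49 (adjusted p = 0.268), and gins1 by -0.14, with a 95% interval from -1.37 to 1.1, its probe being well above background in 1 control and 1 crush pool. The probes of mcm10, whose protein helps to start the fork, differed by -0.16 (adjusted p = 0.543 in limma) and 0.82 (adjusted p = 0.123 in limma). The dimmer mcm10 probe read 4.78, 5.55, 5.18 and 5.26 in the control pools and 6.50, 5.77, 5.47 and 6.33 in the crush pools, which overlap. It was well above background in 2 of 4 control pools.

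**Figure D4:**
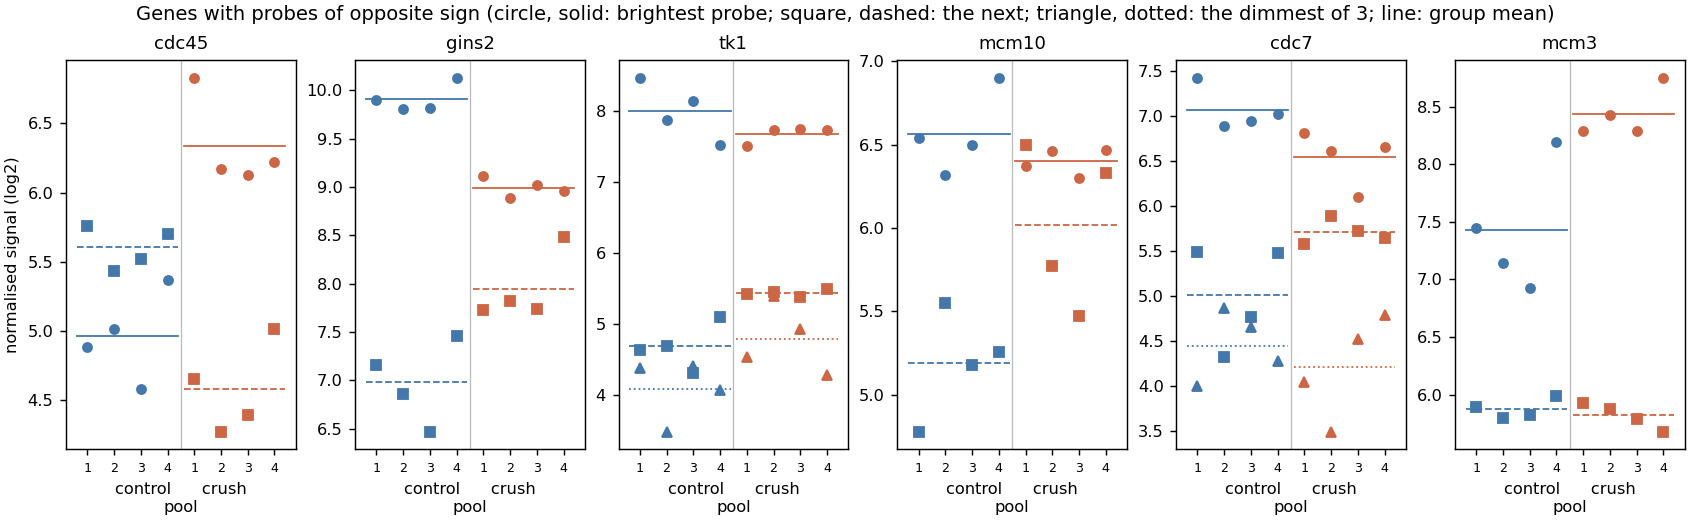
Normalised log2 signal (y axis, with its own range in each panel) of each probe of 6 replication genes in control pools 1 to 4 (blue) and crush pools 1 to 4 (orange), with lines for the group means and marker shapes for the probes of a gene. In the cdc45 panel one probe has all crush pools above all control pools and the other all below, and in the gins2 panel the bright probe is lower and the dim probe higher after crush.

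Of the 35 genes with more than 1 probe, 11 had probes of different sign: cdc45, gins2, tk1, mcm10, cdc7, mcm3, mcm4, orc2, rfc1, lig1 and ccne2. In mcm4 the odd probe, at -0.21, was well above background on no array. In mcm3 it was a dimmer probe at -0.06 (adjusted p = 0.805 in limma) that was well above background on all arrays and lay flat, while the brighter probe gave 1.02. In orc2, rfc1, lig1 and ccne2 all probes lay between -0.15 and 0.20 and none passed. How the probes of a gene relate to its transcripts was not analysed here.

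In the origin recognition complex 1 of the 6 subunits was called. orc6 read 5.58, 5.04, 4.92 and 5.65 in the control pools and 6.44, 6.94, 7.0 and 6.51 in the crush pools. Its crush pools stood well clear of its control pools, and pools 2 and 3 led the crush group in place of pool 4. The log2 fold change was 1.43 (SE 0.21, adjusted p = 0.0113 in limma) and passed in all 8 sets of 7 pools. The second orc6 probe gave 1.32 (SE 0.61, adjusted p = 0.279 in limma). It was well above background in 1 crush pool and in no control pool, which leaves only a bound of 1.7-fold. Its signal was 4.0, 2.67, 3.41 and 3.74 in the control pools and 3.58, 6.68, 4.42 and 4.39 in the crush pools, which overlapped. Crush pool 2 stood far above the other crush pools, so the size of the change on this probe is uncertain. Among the other subunits, orc5 differed by 0.57 (adjusted p = 0.123 in limma), with control pools at 5.22, 4.52, 4.95 and 5.20 and crush pools at 5.71, 5.66, 5.39 and 5.40, which did not overlap. orc1 differed by 0.44 (adjusted p = 0.138) and orc4 by 0.28 (adjusted p = 0.263). The brightest probes of orc2 and orc3 differed by -0.01 and -0.02, values that turned to 0.12 and 0.05 when the arrays were scaled by their medians.

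Of the licensing and firing factors, neither gene measured passed. cdc6, whose protein loads the ring at the origin, read 6.39, 5.42, 5.80 and 6.44 in the control pools and 6.61, 7.0, 7.0 and 6.74 in the crush pools (difference 0.83, SE 0.23, adjusted p = 0.101 in limma). Its groups did not overlap, and crush pools 2 and 3 were its highest. cdc7, the kinase that fires loaded origins, differed by -0.52 on its brightest probe (adjusted p = 0.168 in limma), at 7.42, 6.88, 6.94 and 7.02 in the control pools and 6.81, 6.61, 6.10 and 6.65 in the crush pools. On the second probe it differed by 0.70 (adjusted p = 0.186 in limma), at 5.48, 4.32, 4.76 and 5.47, then 5.57, 5.88, 5.72 and 5.64. The groups did not overlap on either probe, in opposite directions, and the third probe, well above background in 1 pool only, gave -0.23.

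At the moving fork, none of the 5 genes of the sliding clamp and its loader passed, and their brightest probes lay between -0.05 and 0.29 with a median of 0.24. pcna, the clamp that tethers the polymerases and a common marker of cycling cells, read 9.69, 9.50, 8.75 and 9.46 in the control pools and 9.32, 9.01, 9.51 and 9.64 in the crush pools. The groups overlapped throughout, control pool 1 being the highest of all 8 pools and control pool 3 the lowest. The difference was 0.02 with a 95% interval from -0.49 to 0.52 (adjusted p = 0.979 in limma), an interval that stays within a fold change of 1.5 either way, and the second pcna probe gave 0.12. Of the loader, rfc4 had the largest difference, 0.29 on the brightest probe and 0.59 (SE 0.15, adjusted p = 0.0684 in limma) on the second, which had all crush pools above all control pools. rfc3 differed by 0.24, rfc5 by 0.26 and rfc1 by -0.05, and rfc1 turned to 0.07 with arrays scaled by their medians.

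Replication protein A, which covers single-stranded DNA, had 2 of its 3 subunits apart between the groups without a call. rpa3 read 10.56, 10.46, 10.55 and 10.68 in the control pools and 11.03, 10.98, 10.85 and 11.17 in the crush pools (difference 0.45, SE 0.11, adjusted p = 0.0604 in limma). rpa2 read 8.29, 8.44, 8.05 and 8.58, then 8.64, 8.76, 8.99 and 8.93 (difference 0.49, SE 0.14, adjusted p = 0.105 in limma). Both differences lay under the fold threshold, so that these genes would not have been called at any p. The large subunit gene rpa1 differed by -0.01, or by 0.12 with arrays scaled by their medians.

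None of the 6 polymerase and primase genes passed, and their median was 0.21. The primase gene prim1 had the largest difference at 0.47 (adjusted p = 0.449 in limma), over a control pool 2 at 6.91 and other control pools from 8.09 to 8.48. pold1, the catalytic subunit of polymerase delta, differed by 0.23 with no overlap, from 9.44 to 9.64 in the control pools and from 9.71 to 9.85 in the crush pools. pole2, a subunit of polymerase epsilon, had a lower mean after crush on every probe. Its 3 probes differed by -0.33, -0.22 and -0.33, and each had all crush pools below all control pools, the brightest at 10.51, 10.66, 10.46 and 10.62 and then 10.32, 10.34, 10.22 and 10.08. None of the 3 passed in limma (adjusted p = 0.138, 0.274 and 0.276). The remaining genes pole, pola2 and pold2 differed by 0.41, 0.18 and 0.06, and the ligase gene lig1, which seals the joins of the lagging strand, by 0.11.

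The supply of deoxynucleotides held 3 of the 7 over-expressed genes. tyms, thymidylate synthase, makes the thymidine nucleotide from its uridine counterpart. Its single probe had the largest change of the set in the values printed here, which used an offset of 0 in the background correction. With an offset of 50 its log2 fold change was 1.06, below that of mcm6 at 1.2. In the values printed, the tyms probe read 6.20, 5.13, 5.29 and 6.23 in the control pools and 7.17, 7.30, 7.23 and 7.80 in the crush pools. The crush pools were close to each other, whereas the control pools fell into a higher pair (1 and 4) and a lower pair (2 and 3), all below the crush pools. The log2 fold change was 1.66 (SE 0.28, adjusted p = 0.0202 in limma), a 3.17-fold rise. It passed in 4 of 8 sets of 7 pools, and lost its call without control pool 3 (adjusted p = 0.0666 in limma), crush pool 2, crush pool 3 or crush pool 4.

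Ribonucleotide reductase turns ribonucleotides into deoxyribonucleotides, and its small subunit was read by 6 probes of rrm2l. The listed symbol rrm2 is an older name that rrm2l shares with rrm2b. Only rrm2l was matched on the array, so this assignment is less certain than the others. The brightest rrm2l probe read 9.36, 9.25, 9.0 and 9.33 in the control pools and 9.98, 9.95, 9.96 and 10.39 in the crush pools. Apart from crush pool 4 the crush values were nearly level, and all were above the control pools. It rose by 0.84 (SE 0.14, adjusted p = 0.0182 in limma), and 2 more of its probes passed, at 1.02 (adjusted p = 0.0150 in limma) and 0.88 (adjusted p = 0.0493 in limma). The 3 other rrm2l probes gave 0.41 to 0.48 and did not pass, though all 6 probes had every crush pool above every control pool. The dimmest of them was well above background in 1 control pool and 2 crush pools. The brightest probe passed in 5 of 8 sets of 7 pools, and lost its call without control pool 3 (adjusted p = 0.0582 in limma), crush pool 2 or crush pool 3. The gene of the large subunit, rrm1, differed by 0.37 (adjusted p = 0.307 in limma), with control pools at 10.53, 11.05, 10.89 and 11.14 and crush pools at 11.12, 11.31, 11.01 and 11.67, which overlapped.

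Thymidine kinase, tk1, salvages thymidine and was called by 1 of its 3 probes. That probe read 4.64, 4.70, 4.32 and 5.10 in the control pools and 5.42, 5.45, 5.38 and 5.50 in the crush pools. The crush pools were almost level and all above the control pools, of which 2 were well above background. It rose by 0.75 (SE 0.16, adjusted p = 0.0430 in limma), a call that was lost with any pool but control pool 4 left out. The brightest probe of the gene read 8.47, 7.87, 8.15 and 7.52, then 7.51, 7.73, 7.75 and 7.73, a difference of -0.32 (adjusted p = 0.403 in limma) with control pool 4 inside the crush range. The dimmest gave 0.69 (adjusted p = 0.222 in limma), with 1 crush pool and no control pool well above background, which leaves only a bound of 1.48-fold. Of the other genes of this group, dut differed by 0.22 and dhfr by -0.04, which turned to 0.06 with arrays scaled by their medians.

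Chromatin assembly and the S-phase cyclins held no call. chaf1a, the large subunit of the factor that places new histones behind the fork, had 5 probes with differences from 0.09 to 0.65, all in the same direction (brightest probe adjusted p = 0.150 in limma). The dimmest chaf1a probe was well above background in no control pool. ccna2, cyclin A2, had the largest difference of the cyclins, 0.75 (SE 0.24, adjusted p = 0.132 in limma), at 7.61, 7.08, 6.89 and 7.70 in the control pools and 7.91, 8.15, 7.70 and 8.53 in the crush pools. Control pool 4 equalled crush pool 3 there, and the pools were ordered as in the MCM genes. ccne1 and ccne2, the E cyclins that drive entry into S phase, differed by 0.55 and 0.08, and neither passed.

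Further genes of replication and the cell cycle, outside the set, were counted in 7 lists. For these and the marker lists below, the shares of all genes with a symbol were 3.02% with a probe called higher and 1.19% with a probe called lower. On the brightest probe 2.47% of all genes were called higher. Of 12 measured origin and fork factors, 4 rose (3 on the brightest probe) and none fell, with a median log2 fold change of 0.07. The 2 with the largest rise were wdhd1, which links polymerase alpha to the helicase, and dscc1, a subunit of the alternative clamp loader for cohesion. wdhd1 read 5.61, 5.42, 5.67 and 5.93 in the control pools and 6.81, 6.73, 6.67 and 7.05 in the crush pools (1.16, SE 0.14, adjusted p = 0.00459 in limma), with a wide gap between the groups. dscc1 changed by 0.99 (adjusted p = 0.0234 in limma), with 2 of 4 control and 4 of 4 crush pools well above background. Of 9 measured polymerase subunits and strand-processing genes none passed in either direction, with a median of 0.11, as for the polymerases of the set.

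In the wider list of nucleotide supply, 5 of 23 measured genes rose (4 on the brightest probe), none fell, and the median was 0.34. Its 2 largest rises were impdh2, the rate-limiting enzyme of guanine nucleotide synthesis, at 0.92 (adjusted p = 0.0297 in limma) and dctd, the deaminase that feeds thymidylate synthase, at 0.85 (adjusted p = 0.0151 in limma). The dctd probe was well above background in 1 of 4 control and 4 of 4 crush pools, so the size of its change is uncertain. Of 26 measured regulators of the step from G1 to S, 2 rose, none fell and the median was 0.18. The one called on its brightest probe was cdk2, the kinase that works with cyclins E and A, at 7.58, 7.02, 7.06 and 8.01 in the control pools and 8.39, 8.49, 8.60 and 9.04 in the crush pools (1.21, SE 0.24, adjusted p = 0.0367 in limma). Control pool 4 and crush pool 4 were its highest in each group.

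Among 13 measured genes for the copying of chromatin 3 rose, 1 of them on the brightest probe, none fell, and the median was 0.20. That gene was cdca7a, which works with the remodeller HELLS, at 1.45 (SE 0.31, adjusted p = 0.0431 in limma). None of 16 measured genes of the S-phase checkpoint and repair passed (median 0.12). Of 20 measured mitosis genes 10 rose, 7 of them on the brightest probe, and none fell. On the brightest probe 18 had a higher mean and the median was 0.94, the highest of the 7 lists. kif11, the motor that separates the spindle poles, read 6.11, 5.23, 5.29 and 6.29 in the control pools and 7.47, 7.71, 7.45 and 8.52 in the crush pools (2.05, SE 0.32, adjusted p = 0.0141 in limma). ccnb1, cyclin B1, changed by 1.78 (SE 0.28, adjusted p = 0.0146 in limma). Per pool the mitosis medians were 0.28, -0.23, -0.30 and 0.31 in the control pools and 0.78, 1.05, 0.72 and 1.31 in the crush pools, the same order of pools within each group as the MCM genes had. Whether mitosis and replication genes differed in their change was not tested.

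**Figure D5:**
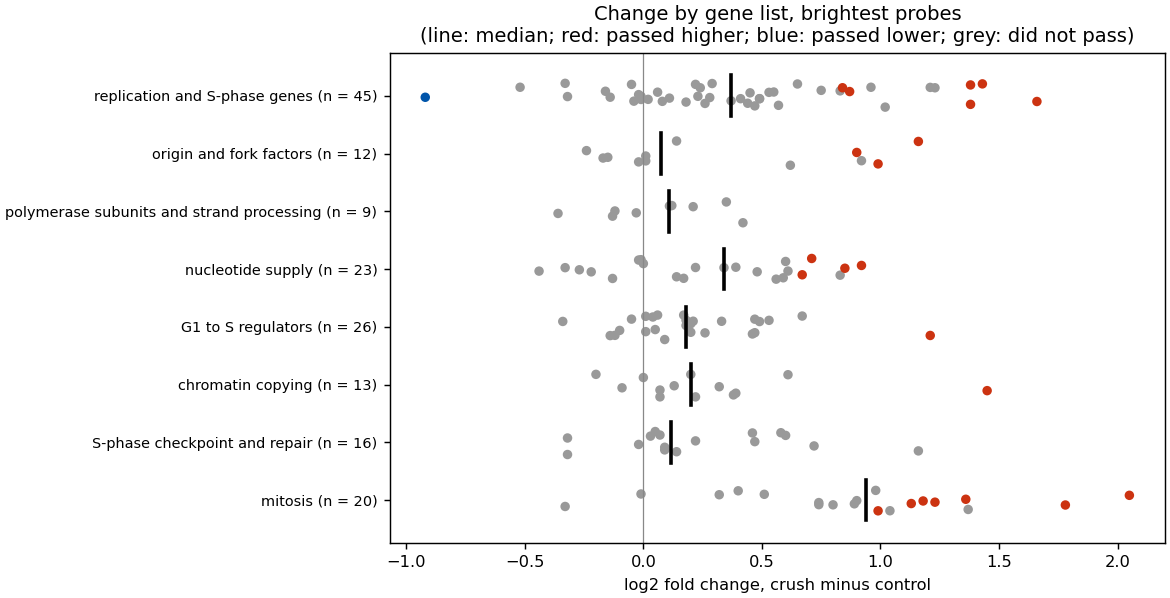
Log2 fold change (x axis, crush minus control) of the brightest probe of each gene in the replication set and in 7 related gene lists (y axis, with the number of genes measured), with black lines for medians and colours for genes that passed. The median is 0.37 for the replication set, between 0.07 and 0.34 for 6 of the lists and 0.94 for mitosis.

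Markers of other cells moved with some of the same pools. Of 13 measured microglia and macrophage markers none passed, 11 were higher and the median log2 fold change was 0.50. Their summed signal was 33800 to 51500 in the control pools and 38000 to 59100 in the crush pools, highest in crush pool 4, where their median deviation was 1.11 against 0.13 to 0.34 in the other crush pools. In control pools 1 to 4 it was 0.40, -0.15, -0.29 and 0.00. Of 3 measured neutrophil markers none passed, and their summed signal was 1020 to 3180 in the control and 2570 to 4610 in the crush pools. By gene the log2 differences were 1.24 for nccrp1, which had the brightest signal of the list, 0.02 for lyz and -0.08 for mpx. Their median deviations were 0.36, -0.15, -0.47 and 0.58 in control pools 1 to 4 and 0.00, -0.60, 0.11 and 1.13 in crush pools 1 to 4. Of 5 lymphocyte markers none passed, the sum being 255 to 363 and 218 to 277, and cd8a was well above background on no array. The lymphocyte medians were 0.35, 0.35, -0.24 and -0.42 in the control pools and -0.08, -0.42, 0.21 and 0.06 in the crush pools. The part of these cells in the replication signal was not tested.

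The lists for glia and progenitors of the retina held 1 call. Of 7 Müller glia markers none passed, with a median of -0.06 and summed signals of 250000 to 327000 and 250000 to 291000, and slc1a3b was well above background on no array. The glia medians were 0.21, -0.15, -0.21 and 0.03 in control pools 1 to 4 and 0.03, -0.06, -0.14 and -0.13 in crush pools 1 to 4. Of 13 progenitor and ciliary margin markers 1 passed, lin28ab, at 6.59, 5.20, 4.98 and 4.78 in the control pools and 7.03, 7.30, 7.77 and 7.03 in the crush pools (1.90, adjusted p = 0.0361 in limma). Its probe was well above background in 2 of 4 control and 4 of 4 crush pools. The list had a median of -0.21 and summed signals of 65300 to 81900 and 61400 to 75800. Per pool its medians were 0.04, -0.20, -0.15 and 0.29 in control pools 1 to 4 and 0.09, -0.21, -0.19 and 0.20 in crush pools 1 to 4. Pool 4 was thus the highest in each group, as in the replication set. Only 5 of the 13 markers had a higher mean after crush, and the largest fall was that of rx1, at -0.75 (adjusted p = 0.280 in limma). The sum rests on bright genes, with control means of 14.34 for six3b and 13.83 for rx1 against 5.39 for lin28ab and 8.72 for ascl1a. Whether the markers of this list report progenitors or mature cells of the retina was not tested. ascl1a, a gene of glia that re-enter the cycle, did not pass. It read 8.60, 7.95, 8.04 and 10.29, then 10.44, 9.59, 9.90 and 10.60 (difference 1.41, adjusted p = 0.171 in limma). Control pool 4 lay within the crush range of ascl1a. The part of glia and progenitors in the replication signal was not tested.

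Lens RNA was uneven between control pools, with summed lens signals of 4710 to 25100 in the control and 2790 to 5250 in the crush pools, a median of -1.41 over 9 markers and none called. Ganglion cell markers, 6 of them measured, had 4 lower and 1 higher, with sums of 47000 to 66500 and 20200 to 28600. Rod, cone, red blood cell, pigment epithelium and vessel lists had no called gene and medians of -0.48, -0.17, -0.56, 0.08 and -0.33. Their part in the replication signal was not tested either.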

How the data were processed

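RNA of 8 retinal pools had been hybridised to one-colour Agilent zebrafish arrays labelled with Cy3. The deposited scanner files give, per spot, a median signal intensity and a median local background intensity, neither of them normalised, and a processed intensity that the scanner software had corrected. The authors also deposited log2 values, which were recomputed here (largest gap 5e-09) from the intensities by normexp (offset 16) followed by quantile normalisation of all 45220 spots. The genome build used by the authors is not given in the sources used here.

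For the values printed, normexp was run with offset 0, control spots were left out, outlier spots were set to missing, arrays were quantile normalised, and log2 values of spots of the same probe were averaged. This correction had been planned on the spot signal, for which the files hold the median. Every probe with 2 or more values per group entered limma 3.58.1 (R 4.3.3; lmFit, then eBayes, two-sided), on all 8 pools without covariates, with Benjamini-Hochberg adjustment over 43601 probes. A probe passed at a fold change of at least 1.5 and an adjusted p of at most 0.05, the thresholds of the study's methods. Groups and replicate numbers came from the labels, and no value column was left unused. Symbols came from the RefSeq accessions of the probes through a RefSeq gene table of assembly GRCz12tu, which named 25598 of 43603 probes (58.7%). A gene's single value is that of its brightest probe. A probe at background on every array of a group has only a bound there, set by the lowest signal among probes well above background.

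All pool values were given for genes with a called probe, other members were given by role group with the largest and smallest changes, and the called genes with the largest rises, up to 2 a list, were named from the other lists. From the marker lists ascl1a, rx1, slc1a3b, cd8a, nccrp1, lyz and mpx were named without a call. Members, roles and lists were chosen with earlier results of these data known. The lists were origin and fork factors, polymerase subunits and strand processing, nucleotide supply, G1 to S regulators, chromatin copying, S-phase checkpoint and repair, mitosis, and markers of 12 cell types or tissues. The limma step alone was tested on simulated log2 values. Alternatives were other corrections and scalings, a filter on dim probes, outlier spots kept, the mean of a gene's probes, a stricter threshold, the replicate number as a block and each pool left out in turn. Over all probes, same-numbered control and crush pools deviated together little (r = 0.01, -0.118, 0.017 and 0.181 for numbers 1 to 4), so the numbers were not treated as pairs. By the median of the MCM genes, however, pool 4 was highest and pool 3 lowest in both groups. Whether same-numbered pools shared a batch was not tested. Summaries used pandas 2.3.3 and numpy 2.4.6 under Python 3.11.15, and plots matplotlib 3.10.9. With 4 arrays a group, precision is limited by their number.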

Additional observations from a re-analysis of the deposited data

Results flagged for a closer look

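In 7 of the 90 groups of 4 pools examined (45 genes, brightest probe), 1 pool lay far from the other 3 on a gap test that chance alone passes in about 1 in 20 groups. Crush pool 4 was the high pool in 3 of them. It read 10.39 for rrm2l, where the other crush pools lay at 9.95 to 9.98, 7.97 for pole against 7.06 to 7.16, and 7.02 for ccne1 against 6.01 to 6.15. Crush pool 1 read 6.83 for the cdc45 probe that rose, against 6.13 to 6.22 in the other crush pools, and 7.51 for the brightest tk1 probe, against 7.73 to 7.75. Crush pool 2 read 10.66 for rpa1, where the others lay at 11.03 to 11.09. In the control group, pool 1 read 10.64 for dut against 9.89 to 10.01 in the other control pools.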

How the results depend on the processing

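The median log2 fold change of the replication genes stayed between 0.26 and 0.45 under every alternative run. Some single genes moved more at an offset of 50: tyms from 1.66 to 1.06, orc6 from 1.43 to 0.8 and cdc45 from 1.38 to 0.69. There mcm6 moved from 1.38 to 1.2 and mcm7 from 0.87 to 0.86. The count of over-expressed genes, 7, became 11 with median scaling, 4 with the processed signal (which moved the median of all probes to -0.12), 12 with only probes well above background, 3 with each gene's probes averaged, 1 at a log2 threshold of 1.5, and 3 to 13 with 1 pool left out. With median scaling, with only probes well above background and without control pool 4, gins2 and cdc45 were each called in both directions. The count of under-expressed genes, 2, became 1 at an offset of 50, 0 with the mean of probes and 0 at the log2 threshold, and 1 to 2 with 1 pool left out. Probes of the set that passed upwards, 11, became 17 with only probes well above background, 1 at the log2 threshold and 5 to 19 with 1 pool left out, and those that passed downwards, 2, became 1 at an offset of 50, 0 at the log2 threshold and 1 to 2. Over the whole array 377 lower probes became 210 at an offset of 50, 1204 with median scaling and 866 with the processed signal, and with 1 pool left out 122 to 500 were lower and 356 to 1033 higher.

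The replicate number was also used as a block, although same-numbered pools deviated together little over all probes. With it, 4 genes (cdc45, mcm6, rrm2l and tyms) and 5 probes of the set were higher. Over the array 366 probes were higher and 122 lower. The adjusted p in limma was then 0.06 for mcm7, 0.0738 for orc6 and 0.0555 for the brightest rrm2l probe.

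Of the 7 genes called on the brightest probe, mcm7, cdc45, gins2 and orc6 passed in all 8 sets of 7 pools. Directions turned for gins2 (0.02), mcm10 (0.33), orc2 (0.01) and tk1 (0.37) with the mean of probes, for orc2 (0.12), orc3 (0.05), rfc1 (0.07), rpa1 (0.12) and dhfr (0.06) with median scaling, and for orc2 (0.05), rfc1 (0.02) and rpa1 (0.01) with the processed signal. With 1 pool left out, values crossed 0 for orc2 (-0.13 to 0.07), rfc1 (-0.10 to 0.00), dhfr (-0.14 to 0.04), gins1 (-0.55 to 0.23), orc3 (-0.08 to 0.06), rpa1 (-0.06 to 0.09), pcna (-0.18 to 0.14), pold2 (-0.04 to 0.18) and ccne2 (-0.05 to 0.27). The cause was not tested in any of these. Probes of the set near background, 5 of them above it on no array, limit what can be said of gins1 and of both cdc45 probes. They also limit dimmer probes of mcm4, mcm5, mcm10, cdc6, cdc7, orc6, pole, rrm2l, tk1, chaf1a, ccne1 and ccna2, and the single probe of orc5.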
